A study of Mus musculus with 24 samples.

Results

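Microglia from SOD1G93A mice were compared with WT microglia after activation by lipopolysaccharide (LPS), with 3 RNA-seq libraries per genotype, which are 6 of the 24 libraries of the series. Of 24411 genes listed, the 10679 whose normalized count averaged 10 or more across these 6 libraries were tested. Both groups were primary postnatal mouse microglia, isolated from whole brain with Cd11b magnetic beads, kept in serum-free medium with TGF-β2, IL-34 and cholesterol, and given 50 ng/mL LPS for a time that the labels do not give. SOD1G93A mice carry a human SOD1 transgene with the G93A substitution under the human SOD1 promoter, which is active in many cell types, bred into C57BL/6J. WT mice were wild type. Cells cultured from pups stand far from the adult spinal cord in which this model develops disease. The labels do not say that replicates came from separate cultures or animals, so p-values measure only the spread between these libraries, which may be technical.

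LPS binds CD14 and the TLR4 receptor on microglia, which signals through MyD88 to NF-κB and through a second branch to interferon regulatory factors. NF-κB drives cytokines, chemokines and its own inhibitors, and secreted interferon then switches on a broad antiviral gene program, while genes of resting, surveying microglia are turned down. The comparison asks whether the mutant transgene changes this activated state. Levels in 3 WT quiescent microglia libraries, given PBS in place of LPS, are quoted from a table that was normalized separately. The scale of a WT LPS library differed between the 2 tables by a factor between 0.9999 and 1.008.

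Depth ranged from 4042840 recovered reads in SOD1G93A LPS replicate 3 to 11570122 in SOD1G93A LPS replicate 2. From the others, 2 libraries stood apart. SOD1G93A LPS replicate 3 differed from the remaining SOD1G93A LPS libraries by a median absolute log2 difference of 0.23 per gene, against 0.10 between replicates 1 and 2. WT LPS replicate 1 differed from WT LPS replicates 2 and 3 by 0.24 and 0.24, against 0.13 between those 2. SOD1G93A LPS replicate 3 was the lowest of the 6 libraries for 26.5% of genes and the highest for 29.7%. WT LPS replicate 1 was the lowest for 26.8% and the highest for 23.8%. Differences of named genes are therefore given with and without SOD1G93A LPS replicate 3.

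The position of each library between the quiescent and the LPS state was read from 515 genes at least 4-fold higher and 342 genes at least 4-fold lower in WT LPS than in WT quiescent microglia. On a scale where the WT quiescent mean is 0% and the WT LPS mean is 100%, the median position over the 515 genes was 97.4% in SOD1G93A LPS replicate 1, 97.6% in replicate 2 and 78.1% in replicate 3. The genes turned down by LPS gave 92.9%, 89.4% and 74.6%. The genes were chosen on the WT libraries, which also set the scale, so WT lies near 100% by construction and SOD1G93A libraries are compared only with each other. Replicate 3 lay lowest of the 3 in both directions.

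Mouse Sod1, the gene for cytosolic superoxide dismutase, was read first. It stood at 945, 818 and 813 normalized counts in WT LPS replicates 1 to 3 and at 943, 905 and 1042 in SOD1G93A LPS replicates 1 to 3. The groups overlapped. The log2 fold change (SOD1G93A minus WT, on log2(normalized count + 1)) was 0.17 ± 0.11 (SE, n = 3 per group), adjusted p = 0.622 by limma. Sod1 lies at chr16:90220754-90226329 of mm10. The human transgene is absent from that genome, so this value neither measures it nor checks the genotype labels. With all 6 libraries, and then without replicate 3, the log2 fold change was 0.17 and 0.11 for Sod1.

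No gene passed an adjusted p under 0.001 together with a change over 2-fold by limma (0 of 10679, 0%). edgeR also called 0 and DESeq2 called 3 under that rule, and 930 genes had an unadjusted p under 0.05 by limma. At an adjusted p under 0.05 at any fold, limma called 1 gene (0.00936% of genes tested), and edgeR called 1 and DESeq2 called 12. That count was 2 without WT LPS replicate 1 and 2 without SOD1G93A LPS replicate 3. It was 0 without WT LPS replicate 2, WT LPS replicate 3, SOD1G93A LPS replicate 1 or SOD1G93A LPS replicate 2. Sample quality weights gave 21. Leaving out both WT LPS replicate 1 and SOD1G93A LPS replicate 3 gave 304. That choice was made after seeing the data and by construction lowers the spread within groups. For 9199 genes (86.1%) the 95% interval of the fold change lay within 2-fold in either direction. Among 86 genes that differed by over 2-fold in the estimate, 21 still did without SOD1G93A LPS replicate 3.

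Fn1, which encodes the matrix glycoprotein fibronectin, had the largest log2 fold change among genes with a mean of at least 50 whose groups did not overlap. WT LPS libraries held 579, 800 and 830 normalized counts and SOD1G93A LPS libraries 2146, 2169 and 3614 (replicates 1 to 3 in order, here and below). Every mutant library was above every WT library, with replicate 3 the highest. WT quiescent microglia held 2159, 2093 and 2290, so replicates 1 and 2 stood near the quiescent level. The log2 fold change was 1.82 ± 0.22 (SE, n = 3 per group), 3.52-fold, and missed the threshold with adjusted p = 0.101 by limma. Without SOD1G93A LPS replicate 3 it was 1.57, with adjusted p = 0.0343. Adjusted p ranged from 1.7e-13 to 0.612 over 18 alternatives. Fn1 lies at chr1:71585520-71653200 of mm10.

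**Figure D1:**
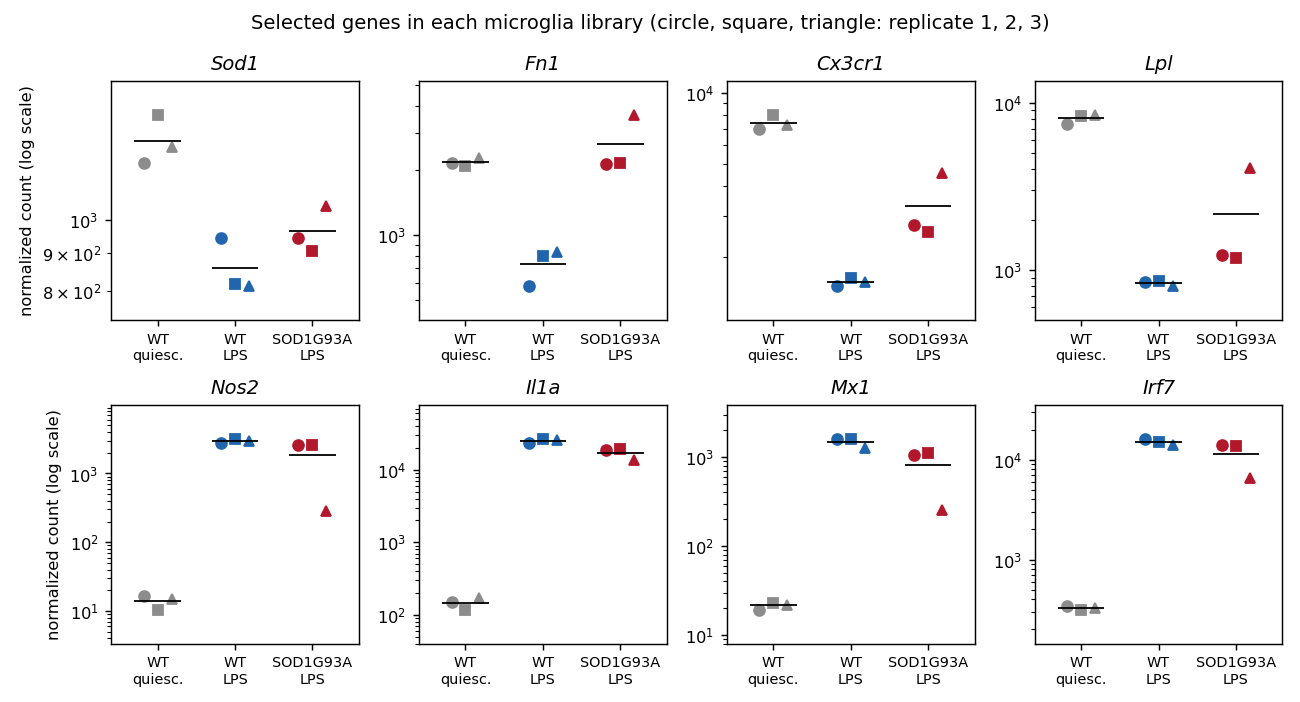
Normalized count (log axis) of 8 genes in each microglia library, with the group mean as a line and replicates 1, 2 and 3 as circle, square and triangle. WT quiescent values come from a table normalized separately. Fn1, Cx3cr1 and Lpl were above WT in every SOD1G93A LPS library, and for Nos2, Mx1 and Irf7 SOD1G93A LPS replicate 3 lay below the other 5 LPS libraries.

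Every SOD1G93A library lay on one side of every WT library for 971 genes higher in SOD1G93A (9.09% of genes tested) and 971 genes lower (9.09%). Others that ranked high among the higher group with a mean of at least 50, beside Fn1, were Lpl, Cspg4, Gm7334 and Cx3cr1. Cx3cr1, the fractalkine receptor of resting microglia, stood at 1516, 1639 and 1582 in WT and 2753, 2556 and 4581 in SOD1G93A, against 7015, 8020 and 7284 in WT quiescent cells. Its log2 fold change was 1.01 ± 0.20 (SE, n = 3 per group), adjusted p = 0.571 by limma, and 0.75 without replicate 3. Over 18 alternatives adjusted p ranged from 8.5e-07 to 0.692. Lpl, lipoprotein lipase, was at 852, 857 and 806 in WT and 1227, 1181 and 4058 in SOD1G93A, so that replicate 3 made up 68.5% of the summed log2 difference. Cspg4, a membrane proteoglycan, was at 363, 416 and 417 in WT and 692, 658 and 1263 in SOD1G93A, and its level in WT quiescent microglia was 6198, 6644 and 6552. Gm7334, a processed pseudogene whose reads could belong to a parent gene, was at 30.6, 30.5 and 43.0 in WT and 61.8, 67.3 and 87.0 in SOD1G93A. Including and then leaving out replicate 3, the log2 fold change was 1.11 and 0.52 for Lpl, 1.06 and 0.76 for Cspg4 and 1.04 and 0.89 for Gm7334.

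On the lower side, among genes with a mean of at least 50, the largest log2 fold changes without overlap were those of Slfn4, Nos2, Il10, Cxcl11, Ifit1bl2 and Mx1, all of them at most at 23.1 normalized counts in any WT quiescent library. Slfn4, a Schlafen family gene, was at 149, 86.6 and 76.8 in WT and 43.0, 59.4 and 11.8 in SOD1G93A. All 3 mutant libraries were lower, with a log2 fold change of -1.64 ± 0.52 (SE, n = 3 per group), and -0.97 without replicate 3. Ifit1bl2, a member of the interferon-induced tetratricopeptide family, was at 58.3, 92.7 and 75.5 in WT and 49.2, 55.7 and 11.8 in SOD1G93A. None of these 6 genes passed the threshold, with adjusted p between 0.571 and 0.591 by limma. Log2 fold changes with and then without replicate 3 were -1.25 and -0.42 for Il10, -1.24 and -0.64 for Cxcl11, -1.18 and -0.50 for Ifit1bl2 and -1.14 and -0.44 for Mx1.

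The activation genes that the study had measured by PCR were Tnf, Il1a, Ccl2, Il6, Cd69 and Nos2. Of the 6, 5 were lower and 1 higher, with a median of -0.44 against 0.01 over all genes tested. The median was -0.21 without replicate 3, with 4 lower and 2 higher. Nos2, the inducible nitric oxide synthase, stood at 2746, 3181 and 3007 in WT and 2571, 2621 and 287 in SOD1G93A. Replicates 1 and 2 lay just under the WT range and replicate 3 lay far lower, and it made up 89.6% of the summed log2 difference. The log2 fold change was -1.25 ± 0.72 (SE, n = 3 per group), adjusted p = 0.591 by limma, and -0.20 without replicate 3. Il1a, a proinflammatory cytokine, was at 23475, 26753 and 25886 in WT and 18820, 19434 and 13750 in SOD1G93A. The mutant libraries all lay lower, with a log2 fold change of -0.56 ± 0.16 (SE, n = 3 per group) and -0.41 without replicate 3, adjusted p = 0.571 by limma. Tnf was at 6259, 5859 and 5346 in WT and 6003, 5879 and 5060 in SOD1G93A, a log2 fold change of -0.04 that became 0.03 without replicate 3. C1qa, a subunit of complement C1q, was at 3472, 2817 and 2650 in WT and 2999, 3022 and 2955 in SOD1G93A, with overlapping groups. Ccl2 and Il6 did not overlap, at log2 fold changes of -0.48 and -0.40, and Cd69, an early activation antigen, was the one gene of the 6 above WT in every mutant library, at 0.18. With all 6 libraries, and then without replicate 3, the log2 fold change was -0.48 and -0.29 for Ccl2, -0.40 and -0.22 for Il6, 0.18 and 0.19 for Cd69 and 0.02 and 0.02 for C1qa.

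The wider cytokine list had 21 genes tested, of which 19 were lower and 2 higher in the estimate, with a median log2 fold change of -0.34 against 0.01 over all genes tested. Its groups did not overlap for 10 lower and 0 higher genes, against 9.09% of all genes tested in each direction. SOD1G93A LPS replicate 3 was the lowest of 6 libraries for 18 of 21, against 26.5% of all genes tested. Without that library the median was -0.22, with 16 lower and 5 higher. Il10, an anti-inflammatory cytokine, was at 189, 140 and 159 in WT and 122, 119 and 20.6 in SOD1G93A. Il27, which steers T cells, was at 106, 92.7 and 83.3 in WT and 70.2, 65.7 and 20.6 in SOD1G93A. In both, replicates 1 and 2 lay below WT by a smaller margin than replicate 3. Il1b, the cytokine with the highest mean, was at 28928, 27046 and 27640 in WT and 27925, 27798 and 19069 in SOD1G93A, where only replicate 3 stood apart. Including and then leaving out replicate 3, the log2 fold change was -1.01 and -0.45 for Il27 and -0.18 and 2.8e-05 for Il1b.

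Of 20 chemokine genes tested, 17 were lower and 3 higher, with a median of -0.16. Leaving out replicate 3 gave 11 lower and 9 higher, with a median of -0.08. Ccl3, with the highest mean, was at 95841, 92119 and 89122 in WT and 99521, 99373 and 83843 in SOD1G93A. Ccl7, a monocyte attractant, was at 674, 465 and 517 in WT and 404, 397 and 115 in SOD1G93A. Cxcl11, annotated as a polymorphic pseudogene, was at 111, 112 and 65.1 in WT and 60.8, 58.3 and 16.2 in SOD1G93A. Ccl3 overlapped between genotypes, and Ccl7 and Cxcl11 did not. Log2 fold changes with and then without replicate 3 were 0.03 and 0.11 for Ccl3 and -1.04 and -0.44 for Ccl7.

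The LPS receptor and its adaptors gave a median of 0.00 over 18 genes, 10 higher and 8 lower, and of 0.04 without replicate 3, 13 higher and 5 lower. Cd14, the coreceptor, was at 29040, 28393 and 27365 in WT and 26526, 26657 and 20812 in SOD1G93A. Tlr4 was at 184, 250 and 220 in WT and 244, 257 and 255 in SOD1G93A, with overlap. Myd88 had a log2 fold change of -0.24 ± 0.13 (SE, n = 3 per group). Among 14 NF-κB subunits and inhibitors 9 were lower, with a median of -0.14, and 9 without replicate 3, with a median of -0.06. Nfkbie, an inhibitor that NF-κB itself induces, was at 617, 663 and 630 in WT and 477, 530 and 276 in SOD1G93A, without overlap. Nfkbib had a log2 fold change of -0.52, and Nfkbiz, with the highest mean, one of 0.01. Feedback inhibitors of the response, which share Il10 with the cytokine list, leaned lower in 15 of 16 genes, with a median of -0.41. Without replicate 3 they did in 13, with a median of -0.18. Dusp1, a phosphatase that shuts off MAP kinases, was at 994, 1088 and 1082 in WT and 857, 872 and 360 in SOD1G93A. Il1rn, the decoy ligand of the IL-1 receptor, was at 19247, 22813 and 21189 in WT and 18341, 19617 and 6387 in SOD1G93A. Immediate early genes had 13 of 18 lower, with a median of -0.31, and 15 lower without replicate 3, with a median of -0.18. Fos, a subunit of AP-1, was at 959, 1084 and 981 in WT and 703, 774 and 447 in SOD1G93A, while Ier3 and Junb had log2 fold changes of -0.64 and -0.43. None of the genes of these lists passed the test. With all 6 libraries, and then without replicate 3, the log2 fold change was -0.21 and -0.09 for Cd14, 0.22 and 0.21 for Tlr4, -0.24 and -0.10 for Myd88 and -0.63 and -0.34 for Nfkbie. Tlr4 ran from 0.10 to 0.32 when each library was left out in turn. Including and then leaving out replicate 3, the log2 fold change was -0.52 and -0.26 for Nfkbib, 0.01 and 0.15 for Nfkbiz, -0.71 and -0.28 for Dusp1 and -0.67 and -0.15 for Il1rn. Log2 fold changes with and then without replicate 3 were -0.69 and -0.45 for Fos, -0.64 and -0.41 for Ier3 and -0.43 and -0.26 for Junb.

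Interferon-stimulated genes leaned lowest of the lists described when replicate 3 was included. All 42 were tested, 0 were higher and 42 lower in the estimate, and the median was -0.53. Without replicate 3 the median was -0.16, with 2 higher and 40 lower. Other lists then had lower medians, at -0.22 for cytokines, -0.21 for the study's activation genes and -0.18 for feedback inhibitors and for immediate early genes. The median difference from WT was -0.18 in SOD1G93A LPS replicate 1, -0.13 in replicate 2 and -1.20 in replicate 3. SOD1G93A LPS replicate 3 was the lowest of 6 libraries for 41 of 42 genes, against 26.5% of all genes tested. The groups did not overlap for 18 genes, all lower, against 9.09% of all genes tested. No gene passed the test, with 10 at an unadjusted p under 0.05, against 8.71% of all genes tested. Mx1, a GTPase that blocks viral replication, was at 1584, 1600 and 1255 in WT and 1062, 1100 and 254 in SOD1G93A. Irf7, the interferon regulatory factor with the highest mean of the list, was at 16128, 14843 and 13950 in WT and 14034, 13673 and 6492 in SOD1G93A. Iigp1, an immunity-related GTPase, was at 185, 221 and 129 in WT and 151, 198 and 14.7 in SOD1G93A, and its log2 fold change of -1.17 became -0.01 without replicate 3. Across the 3 genes replicate 3 was below all other libraries, while replicates 1 and 2 were below WT in Mx1 and within or near the WT range in Irf7 and Iigp1. With all 6 libraries, and then without replicate 3, the log2 fold change was -0.47 and -0.11 for Irf7.

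The promoters of these genes were searched for the core of the interferon-stimulated response element, GAAA repeated after any 2 bases, on both strands. A promoter here is 250 bases before to 50 bases after a gene's start, from RefSeq on GRCm38.p6. Of 42 genes of the list 32 had one, and the core was present in 20 of them (62.5%). The share was 3.96% over 8250 tested genes with a promoter and 3.44% over all 32851 promoters. The list was chosen as interferon-stimulated, so a high share follows from that choice and does not bear on the values of replicate 3. A match is a stretch of letters, not a shown binding site. Promoters of 2 genes with the core and low log2 fold changes are shown with the core in capitals, picked after the values were seen. They are not the lowest of the list. Iigp1 and Mx1 were lower, at -1.17 and -1.14 with all 6 libraries, and their promoters are not shown. That of Rsad2, the antiviral enzyme viperin, is at chr12:26456403-26456702 (minus strand, log2 fold change -0.99, and -0.28 without replicate 3), and that of Gbp3, a guanylate-binding protein with 2 overlapping matches, at chr3:142559794-142560093 (plus strand, -0.81, and -0.26 without replicate 3).
Rsad2: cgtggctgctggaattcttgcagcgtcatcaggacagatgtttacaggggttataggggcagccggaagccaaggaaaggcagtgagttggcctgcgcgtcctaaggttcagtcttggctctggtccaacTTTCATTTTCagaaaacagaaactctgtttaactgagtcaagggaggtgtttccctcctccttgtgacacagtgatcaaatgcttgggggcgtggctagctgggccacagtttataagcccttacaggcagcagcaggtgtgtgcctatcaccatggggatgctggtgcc
Gbp3: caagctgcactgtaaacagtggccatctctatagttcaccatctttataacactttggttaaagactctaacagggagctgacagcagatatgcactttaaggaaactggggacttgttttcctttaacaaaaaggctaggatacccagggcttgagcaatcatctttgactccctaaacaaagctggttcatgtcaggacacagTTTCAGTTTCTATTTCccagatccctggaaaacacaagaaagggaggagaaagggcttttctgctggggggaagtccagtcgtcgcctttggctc

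MHC and antigen processing genes had 18 of 22 lower, with a median of -0.31, and 16 lower without replicate 3, with a median of -0.09. B2m, the light chain of class I MHC, was at 44784, 41270 and 38798 in WT and 40835, 40843 and 33039 in SOD1G93A. H2-Q4, a class I heavy chain whose reads its near-identical relatives could share, was at 3920, 3529 and 3196 in WT and 2834, 3099 and 1305 in SOD1G93A. Cd80, a costimulatory ligand for T cells, was at 322, 313 and 270 in WT and 254, 255 and 131 in SOD1G93A. The last 2 genes did not overlap between genotypes, and B2m did. Complement genes had 7 higher and 6 lower of 13, with a median of 0.02, and 8 higher and 5 lower without replicate 3, with a median of 0.03. C3ar1, the C3a receptor, had a log2 fold change of -0.0020, C2 one of -0.32 and Itgax, a complement receptor subunit, one of 0.80, and 0.03 and 0.26 for the last 2 without replicate 3. In the arginine and itaconate list, which holds Nos2, Slc7a2, an arginine transporter, was at 3555, 5461 and 5623 in WT and 7045, 6548 and 3940 in SOD1G93A, above all WT libraries in replicates 1 and 2 but not in replicate 3. The list's median over 7 genes was -0.04, and -0.03 without replicate 3, with 3 higher and 4 lower both times. Including and then leaving out replicate 3, the log2 fold change was -0.13 and -0.02 for B2m, -0.65 and -0.25 for H2-Q4, -0.56 and -0.24 for Cd80 and -0.002 and 0.13 for C3ar1. Log2 fold changes with and then without replicate 3 were -0.32 and 0.03 for C2, 0.80 and 0.26 for Itgax and 0.25 and 0.51 for Slc7a2. Slc7a2 ran from 0.03 to 0.51 when each library was left out in turn.

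Genes of resting microglia leaned the other way. All 18 homeostatic microglia genes tested were higher in the estimate, with a median of 0.25, and 15 of 18 were higher without replicate 3, with a median of 0.20. The medians of the libraries were 0.18, 0.22 and 0.32, so the lean was present in all 3. The groups did not overlap for 7 genes, all higher, against 9.09% of all genes tested, and no gene passed the test. Csf1r, the receptor for IL-34, was at 4356, 4675 and 4794 in WT and 5238, 5013 and 7640 in SOD1G93A, against 13159, 14013 and 13429 in WT quiescent cells. Tmem119, a microglia marker, was at 98.4, 81.7 and 71.6 in WT and 87.0, 111 and 183 in SOD1G93A. Csf1r did not overlap and Tmem119 did. Disease-associated microglia genes had 12 higher and 12 lower, with a median of 0.03, and the same counts without replicate 3, with a median of 0.00404. Ctsd, a lysosomal protease, was at 35476, 34653 and 34311 in WT and 40710, 40470 and 56586 in SOD1G93A, above WT in all 3 libraries. With all 6 libraries, and then without replicate 3, the log2 fold change was 0.35 and 0.15 for Csf1r, 0.53 and 0.24 for Tmem119 and 0.38 and 0.22 for Ctsd.

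Enzymes that handle superoxide and peroxide had 13 higher and 6 lower of 19, with a median of 0.04, and 12 higher and 7 lower without replicate 3, with a median of 0.03. Sod2, the mitochondrial dismutase, was at 7801, 7158 and 7340 in WT and 7666, 7522 and 7750 in SOD1G93A. Gpx1, a glutathione peroxidase, was at 611, 451 and 500 in WT and 651, 633 and 1091 in SOD1G93A. Prdx1, a peroxiredoxin, was at 5120, 4509 and 4391 in WT and 5688, 5118 and 8745 in SOD1G93A. Gpx1 did not overlap, and the difference in both came mostly from replicate 3, at 63.3% and 68.3% of the summed log2 difference. NRF2 targets and NADPH oxidase genes had 13 higher of 17, with a median of 0.22, and 12 higher without replicate 3, with a median of 0.07. Hmox1, heme oxygenase, was at 7246, 6605 and 6648 in WT and 8210, 7481 and 12618 in SOD1G93A. Nqo1 and Cybb, an NADPH oxidase subunit, had log2 fold changes of 0.55 and 0.29 with overlapping groups. Chaperones and genes of the unfolded protein response had a median of -0.01 over 24 genes, 11 higher and 13 lower, and of -0.06 without replicate 3, 8 higher and 16 lower. Ddit3, a stress-induced transcription factor, had a log2 fold change of -0.52, Hspa1b, an inducible heat shock protein that has a near-identical copy, one of -0.74, and Hsp90ab1 one of 0.07. ALS-linked genes had a median of 0.02 over 22 genes, 12 higher and 10 lower, and of -0.02 without replicate 3, 9 higher and 13 lower. Sqstm1, an autophagy adaptor, had a log2 fold change of -0.21, Tbk1, a kinase upstream of interferon, one of -0.23, and Nek1 one of 0.58. Cell cycle genes had 18 of 21 higher, with a median of 0.26, and 15 higher without replicate 3, with a median of 0.14. Mcm5, a replication helicase subunit, was at 63.4, 61.0 and 72.9 in WT and 80.7, 105 and 161 in SOD1G93A, without overlap, while Top2a and Pcna had log2 fold changes of 0.59 and -0.06 with overlap. Including and then leaving out replicate 3, the log2 fold change was 0.04 and 0.03 for Sod2, 0.57 and 0.31 for Gpx1, 0.44 and 0.21 for Prdx1 and 0.43 and 0.20 for Hmox1. Log2 fold changes with and then without replicate 3 were 0.55 and 0.23 for Nqo1, 0.29 and 0.19 for Cybb, -0.52 and -0.22 for Ddit3 and -0.74 and -0.44 for Hspa1b. Cybb ran from 0.12 to 0.38 when each library was left out in turn. With all 6 libraries, and then without replicate 3, the log2 fold change was 0.07 and 0.06 for Hsp90ab1, -0.21 and -0.09 for Sqstm1, -0.23 and -0.14 for Tbk1 and 0.58 and 0.58 for Nek1. Including and then leaving out replicate 3, the log2 fold change was 0.75 and 0.48 for Mcm5, 0.59 and 0.53 for Top2a and -0.06 and -0.09 for Pcna.

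**Figure D2:**
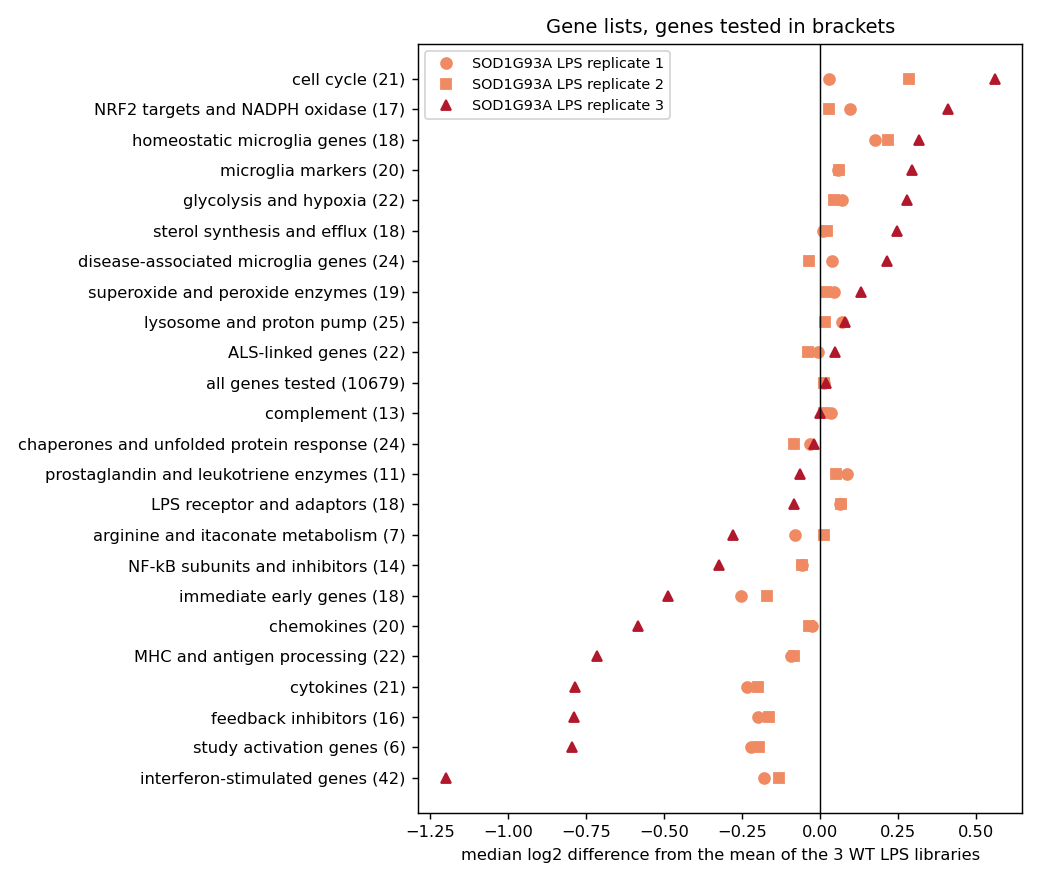
Median log2 difference of each gene list from the mean of the 3 WT LPS libraries, for each SOD1G93A LPS library (circle, square and triangle for replicates 1, 2 and 3), with the number of genes tested in brackets. Replicate 3 lies farthest from 0 for most lists, at -1.20 for interferon-stimulated genes, where replicates 1 and 2 lie at -0.18 and -0.13.

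The share carried by SOD1G93A LPS replicate 3 was read over genes without overlap that differed by over 1.5-fold, as each mutant library's part of the summed log2 difference. For 169 genes higher in SOD1G93A the median share was 26.8% from replicate 1, 24.3% from replicate 2 and 47.6% from replicate 3. For 165 lower genes it was 20.6%, 18.2% and 59.4%, and replicate 3 made up over 50% for 119 of them. Of all 971 higher and 971 lower genes without overlap, whatever their fold with all 6 libraries, 88 and 60 were over 1.5-fold without replicate 3. Of genes with a mean of at least 50, 25 differed by over 2-fold, and 2, Fn1 among them, still did without it. Fn1 was carried by it to 42.4%. The standard deviation of log2 fold changes over all genes was 0.29, and 0.24 without replicate 3.

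**Figure D3:**
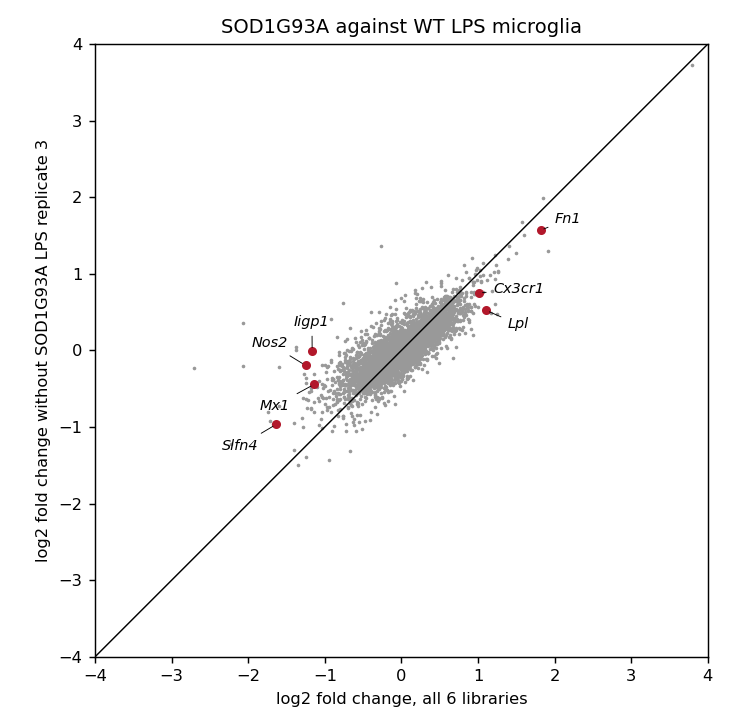
log2 fold change (SOD1G93A minus WT) of each gene tested from all 6 libraries (x axis) and without SOD1G93A LPS replicate 3 (y axis); the line marks equal values. Fn1 (1.82 and 1.57) lies near the line, while Nos2 (-1.25 and -0.20) and Iigp1 (-1.17 and -0.01) move close to 0.

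The 6 genes with a mean of at least 50 that moved most when replicate 3 was left out were Gm6644, Gm21975, Ifit1bl1, Iigp1, Nos2 and Gm4070. Gm6644, a processed pseudogene, was at 292, 122 and 228 in WT and 140, 208 and 0 in SOD1G93A. Gm21975 was at 42.3, 262 and 159 in WT and 129, 187 and 0 in SOD1G93A. Gm4070, a very large GTPase gene model, was at 1326, 2406 and 2609 in WT and 2796, 2209 and 330 in SOD1G93A. These 3 also varied within WT, and counting could split their reads with close copies. Ifit1bl1 was at 1035, 1119 and 897 in WT and 807, 938 and 48.6 in SOD1G93A, with replicates 1 and 2 near or within the WT range. Log2 fold changes with and then without replicate 3 were -2.71 and -0.23 for Gm6644, -2.07 and 0.36 for Gm21975, -1.60 and -0.22 for Ifit1bl1 and -0.68 and 0.29 for Gm4070.

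Microglia markers were all tested, 17 of 20 higher, with a median of 0.15, and 13 higher without replicate 3, with a median of 0.03. Their summed normalized counts were 59318, 56706 and 55564 in WT and 61094, 59819 and 71310 in SOD1G93A, with Fcer1g the most abundant. Astrocyte markers summed to 1332, 1083 and 1601 in WT and 1277, 1589 and 904 in SOD1G93A, led by Gfap, and without it to 1016, 872 and 1254 against 1016, 1211 and 753. Replicate 3 thus held the largest microglial and the smallest astrocyte marker sum of the 6 libraries. It was the highest library for 12 of the 20 microglia markers and the lowest for 2, Ctss and C1qb. Of the 12, Csf1r, Cx3cr1 and Laptm5 were lower in WT LPS than in WT quiescent microglia, and Ptprc was higher. Cell number, RNA per cell and the state of the cells after LPS cannot be told apart in these sums. Oligodendrocyte lineage markers summed to 854, 888 and 882 in WT and 1149, 1172 and 1669 in SOD1G93A, and pericyte and fibroblast markers to 667, 652 and 698 against 922, 944 and 1425. Both sums were led by Cspg4. Without it they were 491, 472 and 465 in WT and 458, 514 and 405 in SOD1G93A for the first, and 303, 237 and 281 against 231, 286 and 162 for the second, lowest in SOD1G93A replicate 3. Endothelial markers summed to 1585, 1758 and 1706 in WT and 1754, 1705 and 1897 in SOD1G93A, led by Slc2a1, and without it to 303, 402 and 352 against 343, 396 and 202. Border macrophage markers summed to 2305, 1924 and 1982 against 2141, 1885 and 2223, led by Ms4a7, and without it to 979, 891 and 979 against 1003, 849 and 1467. Monocyte and neutrophil markers summed to 187, 268 and 223 against 216, 177 and 152, led by Vcan, and without it to 104, 118 and 88.6 against 83.8, 73.1 and 56.0. Neuron markers summed to at most 124, lymphocyte markers to at most 26.5 and erythroid markers to at most 2.95 in any library. The part of these markers in the differences above was not tested.

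The genotype effect in LPS microglia was set against that in activated astrocytes, cortical cells of the same genotypes given 3 ng/mL IL-1α, 30 ng/mL TNFα and 400 ng/mL C1q, in 12 libraries scaled together. The test of the difference between the 2 effects called 86 of 12132 genes at an adjusted p under 0.05 by limma (0.709%), 17 higher and 69 lower in microglia relative to astrocytes. Fn1 was among them, with a genotype effect of 1.81 in microglia and -0.31 in astrocytes and a difference of 2.12 ± 0.24 (SE, n = 3 per group), adjusted p = 0.000662 by limma. The count was 161 without SOD1G93A LPS replicate 2, 54 without WT activated astrocyte replicate 3 and 56 without SOD1G93A activated astrocyte replicate 3.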

How the data were processed

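The authors aligned reads with STAR 2.7.3a to mm10, counted them with RSEM and normalized them with DESeq2, and the deposited values are a signal per gene and library: counts divided by a size factor. 100% of values were whole multiples of 1 read within 0.001, so whole reads were recovered for the count tests, which called 0 (edgeR) and 3 (DESeq2) genes at an adjusted p under 0.001 and over 2-fold. No library of the 6 was left out of the comparison, and 0 columns were dropped. Columns of fold changes and p-values in the same tables were not used. Genes with a mean of at least 10 over the 6 libraries were tested with limma 3.58.1 (R 4.3.3) with an intensity trend on log2(value + 1), and p-values were adjusted by Benjamini-Hochberg over all genes tested. Adding 1 understates changes of low genes. edgeR 4.0.16 and DESeq2 1.42.0 on recovered reads, other pseudocounts, filters and scalings, sample weights, and each library left out were alternatives. An exact test of 3 against 3 cannot give a two-sided p below 0.1. For the comparison with astrocytes, recovered reads of 12 libraries were scaled by median-of-ratios. Tests were checked on simulated data. Members and lists were chosen with earlier results of these data known. Which lists are described, and the alternative of 2 against 2 libraries, were chosen after values were seen. Genes were named by rule: Sod1, the study's activation genes and C1qa; called genes; in each direction the 6 with a mean of at least 50 that differed most without overlap; the 6 that moved most without SOD1G93A LPS replicate 3; and of each list described the member with the highest mean and the 2 that differed most. Some genes that this rule names are not reported here. Some lists share genes, so their counts are not independent. Il10 is in the cytokine and feedback inhibitor lists, and Cx3cr1 in the homeostatic microglia and microglia marker lists. Lists of markers of other cell types are given by their sums and most abundant gene. Depth of the 6 libraries was 8121620, 5098168 and 4674300 reads in WT and 5917006, 11570122 and 4042840 in SOD1G93A. Coordinates are from GENCODE on mm10.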

Additional observations from a re-analysis of the deposited data

Results flagged for a closer look

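The genotype effect differed between LPS microglia and activated astrocytes by an interaction term for 3 of the named genes with all 12 libraries. Over all genes tested it did for 86 of 12132 (0.709%). Some named genes were picked for a large difference in LPS microglia, which is part of this term, so their share is not compared with that of all genes. Without SOD1G93A LPS replicate 3, these 3 still had an adjusted p under 0.05 by limma. Cspg4, Iigp1, Irf7, Mx1 and Vegfa then passed too, with adjusted p from 0.00141 to 0.0334 by limma. Their genotype effects in astrocytes were 0.07, 3.15, 1.28, 1.51 and 0.36 in that order. In microglia, with replicate 3 included, they were 1.06, -1.17, -0.48, -1.15 and -0.70. All values are on the joint scaling of 12 libraries, and limma gave the adjusted p-values.

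Fn1 differed by 2.12 on the log2 scale (SE 0.24, adjusted p = 0.000662). It stood at 636, 860 and 900 scaled counts in WT and 2334, 2378 and 3825 in SOD1G93A LPS microglia, and at 839, 823 and 788 in WT and 730, 642 and 605 in SOD1G93A activated astrocytes. The mutant libraries were higher in microglia and lower in astrocytes, without overlap in either. Over 18 alternatives adjusted p ranged from 6.8e-13 to 0.00443.

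B2m differed by -1.05 (SE 0.17, adjusted p = 0.00695), with a genotype effect of -0.13 in microglia and 0.91 in astrocytes. Astrocytes held 1067, 1210 and 1023 in WT and 2266, 1852 and 2112 in SOD1G93A. Over 18 alternatives adjusted p ranged from 1.6e-06 to 0.0363.

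H2-Q4 differed by -1.93 (SE 0.37, adjusted p = 0.0297), with a genotype effect of -0.66 in microglia and 1.28 in astrocytes. Astrocytes held 93.4, 78.3 and 83.7 in WT and 256, 168 and 207 in SOD1G93A. Over 18 alternatives adjusted p ranged from 0.00012 to 0.0926, and 10 were under 0.05.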

How the results depend on the processing

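The count at an adjusted p under 0.001 and over 2-fold stayed at 0 except that it was 3 with DESeq2 (Cx3cr1 and Fn1 among them) and 2 with sample quality weights (Fn1 among them). At an adjusted p under 0.05 with over 2-fold it was 1. The count at an adjusted p under 0.05 was 2 without a filter, 12 with DESeq2, 0 by limma without a trend and 21 with sample quality weights, which gave WT LPS replicate 1 and SOD1G93A LPS replicate 3 weights of 0.286 and 0.285, and it ranged from 0 to 2 when 1 library was left out. With WT LPS replicate 1 and SOD1G93A LPS replicate 3 both left out, a choice made after seeing the data that by construction lowers the spread within groups, the counts were 3 and 304. The labels do not say whether libraries of 1 number were paired. Their deviations correlated across genes at -0.05, -0.04 and -0.02 for replicates 1, 2 and 3, which cannot settle it. The replicate block moved the count at an adjusted p under 0.05 from 1 to 2 (Fn1 among them) and kept 0 at the stricter rule. For the difference from astrocytes it gave 76. That last count was 168 with DESeq2, 232 with the 2 libraries left out and 54 to 161 with 1 library left out, lowest without WT activated astrocyte replicate 3, then 56 without SOD1G93A activated astrocyte replicate 3, and highest without SOD1G93A LPS replicate 2. The cause of these moves was not tested.

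Signs of log2 fold changes turned as follows, none of them past the threshold. With both libraries left out, Abca1 was -0.054, B2m 0.029, C2 0.056, C3ar1 0.065, Gm6644 0.035, Iigp1 0.034, Il1b 0.027 and Tnf 0.086. With quality weights, B2m was 0.00705, C3ar1 0.071 and Tnf 0.074. Without WT LPS replicate 2, C1qa was -0.02 and C3ar1 0.056. Without WT LPS replicate 3, C1qa was -0.064, C3ar1 0.00817, Ccl3 -0.000225 and Fcer1g -0.00479. Without SOD1G93A LPS replicate 3, C2 was 0.032, C3ar1 0.13, Gm21975 0.36, Gm4070 0.29, Il1b 2.8e-05, Ptgs2 0.15 and Tnf 0.032. With TMM rescaling, C3ar1 was 0.00202. With DESeq2, C3ar1 was 0.00546. With edgeR, C3ar1 was 0.00833. Without SOD1G93A LPS replicate 1, Ccl3 was -0.016 and Nfkbiz -0.061. Without SOD1G93A LPS replicate 2, Ccl3 was -0.015 and Nfkbiz -0.051. Without WT LPS replicate 1, Nfkbiz was -0.081, Pcna 0.00311 and Tnf 0.00890. With quantile normalization, Sod2 was -0.00760.

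Over the 6 alternatives that leave out 1 library, C1qa ran from -0.064 to 0.13, C2 -0.52 to 0.032, C3ar1 -0.077 to 0.13, Ccl3 -0.016 to 0.11, Fcer1g -0.00479 to 0.13, Gm21975 -3.42 to 0.36, Gm4070 -1.25 to 0.29, Il1b -0.28 to 2.8e-05, Nfkbiz -0.081 to 0.15, Pcna -0.10 to 0.00311, Ptgs2 -0.38 to 0.15 and Tnf -0.10 to 0.032. The cause was not tested. Depth limits low genes, where adding 1 shrinks the difference.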

Other observations

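Lists of other functions were read the same way, and none of their genes passed the test by limma. Lysosome and proton pump genes had 15 higher and 10 lower of 25, with a median log2 fold change of 0.10, and 16 higher and 9 lower without SOD1G93A LPS replicate 3, with a median of 0.05. The list had 8 higher genes without overlap, against 9.09% of all genes tested. Lipa, the acid lipase, was at 997, 1232 and 1259 in WT and 1358, 1311 and 2114 in SOD1G93A. It lay above WT in every mutant library. Glycolysis and hypoxia genes had 18 of 22 higher, with a median of 0.16, and 18 without SOD1G93A LPS replicate 3, with a median of 0.06. Vegfa, the vascular growth factor, went against the list, at 586, 676 and 600 in WT and 434, 480 and 268 in SOD1G93A, without overlap. Egln3, an oxygen sensor, had a log2 fold change of 0.53 and Gapdh one of 0.19. Before and after leaving out SOD1G93A LPS replicate 3, log2 fold changes were 0.43 and 0.21 for Lipa, -0.69 and -0.44 for Vegfa, 0.53 and 0.31 for Egln3 and 0.19 and 0.05 for Gapdh.

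Sterol synthesis and efflux genes had 11 higher and 7 lower of 18, with a median of 0.19, and 9 higher and 9 lower without SOD1G93A LPS replicate 3, with a median of 0.01. Abca1, a cholesterol exporter, was at 5210, 10286 and 10300 in WT and 10320, 9527 and 12223 in SOD1G93A, so WT LPS replicate 1 stood apart. Dhcr7 had a log2 fold change of 0.31. Prostaglandin and leukotriene enzymes had 6 higher and 5 lower of 11, with a median of 0.02, and 7 higher and 4 lower without SOD1G93A LPS replicate 3, with a median of 0.07. Ptgs2, the inducible cyclooxygenase, was at 40723, 64139 and 64038 in WT and 61451, 61119 and 31835 in SOD1G93A, low in WT LPS replicate 1 and SOD1G93A LPS replicate 3. Hpgd and Tbxas1 had log2 fold changes of 0.44 and 0.61. Replication-dependent histones had 3 of 19 tested and sex genes 1 of 6, and of 13 mitochondrially encoded genes 0 were in the table. Before and after leaving out SOD1G93A LPS replicate 3, log2 fold changes were 0.37 and 0.27 for Abca1, 0.31 and 0.05 for Dhcr7, -0.16 and 0.15 for Ptgs2, 0.44 and 0.22 for Hpgd and 0.61 and 0.33 for Tbxas1. Abca1 ran from 0.05 to 0.54 when each library was left out in turn.

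Tmem254b, singled out after its values were seen because its log2 fold change of 3.80 was the largest, was at 46.7, 0 and 0 in WT and 53.4, 41.3 and 54.5 in SOD1G93A. WT LPS replicate 1 lay within the mutant range, and without it the gene passed an adjusted p under 0.05. Reads shared with its close copies were not tested.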
